A study of Mus musculus with 2 samples.

Results

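The genes described here are 10 core genes of the TGF-beta pathway in activated CD4 T cells: the ligand gene Tgfb1, the receptor genes Tgfbr1, Tgfbr2 and Tgfbr3, the signal transducers Smad2, Smad3 and Smad4, the inhibitory Smad7, and the corepressor genes Ski and Skil. They were chosen by gene symbol in the platform annotation, 10 of the 20738 genes named on the array, and they are read by 15 probes on 33 spots. The groups were a culture labelled Gfi1 knock out and a culture labelled Gfi1 wild type, both of splenic naïve CD4 T cells from C57BL/6 mice. By the labels, both were stimulated for 2 days with immobilised antibody to TCR-β, a chain of the T cell receptor (3 µg/ml), antibody to CD28 (1 µg/ml) and IL-2 (10 ng/ml), with antibodies that block IL-4 (5 µg/ml) and IFN-γ (5 µg/ml). TGF-beta is not among the reagents the labels list. The allele behind the knockout label, the age of the mice and any pooling are not given in the sources used here. Gfi1 is a zinc-finger protein that represses transcription, and the title of the series asks how it bears on the T helper 1 programme.

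TGF-beta 1 is made as a latent precursor and, once released, binds a complex of type II (Tgfbr2) and type I (Tgfbr1) receptor kinases. The type I receptor phosphorylates SMAD2 and SMAD3, which join SMAD4 and act on genes in the nucleus. SMAD7 blocks the activated receptor, while SKI and its relative SnoN, the product of Skil, bind the SMADs and recruit corepressors. Smad7 and Skil are themselves targets of the pathway and so form feedback loops. In T cells the pathway is known for holding back T helper 1 and cytotoxic genes and for inducing Foxp3.

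RNA of each culture was hybridised to 1 single-colour (Cy3) array, so the spread between animals or cultures is unknown and no test could be run. Signals are in the units of the deposited files. A difference is the log2 value of the array labelled knockout less that of the array labelled wild type, each array being scaled first to the 75th percentile of its probes (269 units under the knockout label, 263 units under the wild-type label). A probe was called detected above its array's median (14.6 units under the knockout label, 14.2 units under the wild-type label), and a gene's difference is the mean over its detected probes. The Gfi1 probe itself read 18100 units on the array labelled knockout and 4260 units on the array labelled wild type, against the label unless the probe lies outside the disrupted part, which the sources used here do not tell. Every direction below therefore rests on the labels. The sex-linked Xist (3.86 units under the knockout label and 447 units under the wild-type label) and Eif2s3y (3870 units under the knockout label and 2.91 units under the wild-type label) also separated the arrays, so that genotype label and sex cannot be told apart. The CD4 T cell markers were bright on both arrays, with Cd4 at 2146 units on the array labelled knockout and 2319 units on the array labelled wild type.

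All 10 genes were detected, and 0 of them differed by at least 2-fold in either direction. Among the 13411 detected genes 3.62% passed 2-fold as higher on the array labelled knockout and 1.52% as lower. At 1.5-fold the count of the 10 genes was 1 higher, Skil, and 0 lower, against a background of 7.67% and 4.25%. Skil stood at 0.81 and Smad7 at 0.31. The other 8 genes lay within 0.2 of 0, as did 54.9% of all detected genes. The median over the 10 genes was -0.02 and that over all detected genes -0.05. Neither the receptors nor the transducing Smads differed by more than 1.5-fold.

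**Figure D1:**
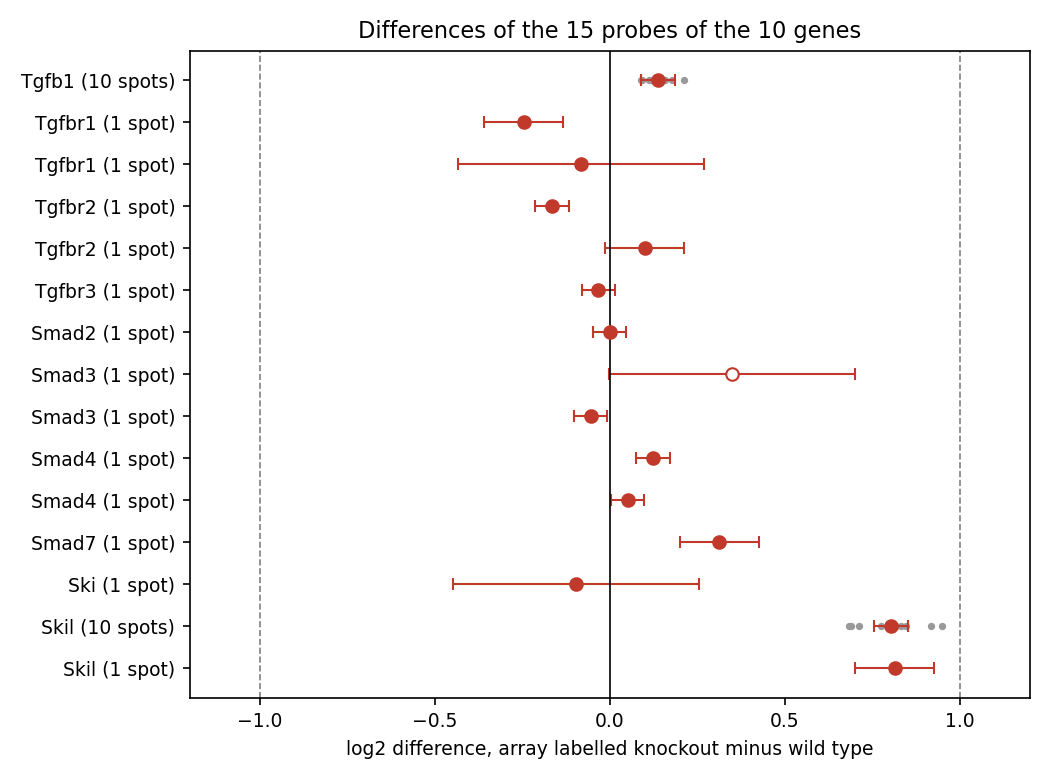
Log2 differences (knockout minus wild type, by label) of the 15 probes of the 10 genes. Red points are probe values, the open point is a probe below the detection level on both arrays, bars are the median SD over spots of 10-spot probes of like brightness, grey points are single spots and dashed lines mark 2-fold. Both Skil probes lie near 0.81, and no probe passes 2-fold.

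The ligand gene Tgfb1 is printed on 10 spots of each array, which shows how closely a value repeats within an array. Its spots had a median of 2280 units (2090 to 2380) on the array labelled knockout and a median of 2025 units (1890 to 2110) on the array labelled wild type. The ranges overlapped, with the dimmest spot of the array labelled knockout inside the range of the other array. The scaled difference was 0.14 ± 0.04 (SD over 10 spots, within the arrays only), and it was above 0 on 10 of 10 spots. A difference of this size or larger, in either direction, was found in 58.9% of detected genes.

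The receptor genes differed little, and their probes did not all point the same way. Tgfbr1, the type I receptor kinase, read 446 units on the array labelled knockout and 517 units on the array labelled wild type on its brighter probe, a difference of -0.25. Its dim probe read 25.7 units under the knockout label and 26.6 units under the wild-type label (-0.08), and the gene stood at -0.16 ± 0.12 (SD, 2 probes). Between-probe spread of this size was common, with a median SD of 0.10 over 3655 genes with several detected probes.

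Tgfbr2 encodes the type II receptor, which binds the ligand and activates the type I kinase. Its brighter probe read 3340 units on the array labelled knockout and 3660 units on the array labelled wild type (-0.16), and its other probe read 205 units under the knockout label and 187 units under the wild-type label (0.10). The probes lay on opposite sides of 0, and the gene value of -0.03 ± 0.19 (SD, 2 probes) has no direction.

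Tgfbr3 encodes betaglycan, a co-receptor that presents the ligand. It read 1050 units on both arrays on its only probe, which scaling turned into -0.03. Its sign depended on the scaling, and cyclic loess gave 0.03. Of these 10 genes it alone lies on the chromosome of Gfi1.

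**Figure D2:**
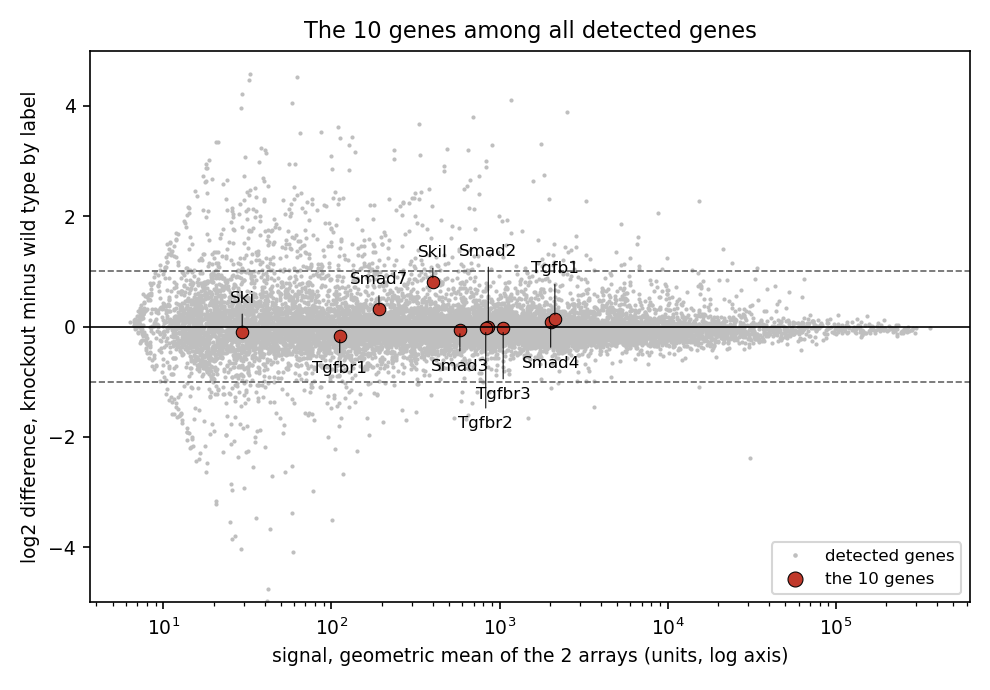
Log2 difference (knockout minus wild type, by label) of each detected gene against its signal (geometric mean of the 2 arrays, log axis). Grey points are the 13411 detected genes, 3 of which lie beyond the axis, red points are the 10 genes, and dashed lines mark 2-fold. The scatter widens among dim genes, and Skil at 0.81 and Smad7 at 0.31 lie above the other 8 of the 10 genes.

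The Smads that carry the signal also lay close to 0. Smad2, a receptor-activated Smad, read 866 units on the array labelled knockout and 847 units on the array labelled wild type, which scaling brought to 0.00. Smad3, its partner, read 576 units under the knockout label and 585 units under the wild-type label on the detected probe (-0.05). Its second probe read 10.5 units under the knockout label and 8.06 units under the wild-type label, below the detection level on both arrays, and was left out. With that probe included Smad3 stood at 0.15, so its sign is not settled.

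Smad4, the common partner of the receptor-activated Smads, gave 1650 and 2670 units on its probes on the array labelled knockout and 1480 and 2520 units on the array labelled wild type. The probes agreed in sign, at 0.12 and 0.05, and the gene stood at 0.09 ± 0.05 (SD, 2 probes). A difference of this size or larger in either direction was found in 72.7% of detected genes.

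Smad7, the inhibitory Smad that turns receptors over, was read by 1 probe at 216 units on the array labelled knockout and 170 units on the array labelled wild type. The difference was 0.31, a 1.24-fold difference. For 10-spot probes of 50 to 500 units the median SD over spots was 0.11, and 90% of them had an SD up to 0.21. Among all detected genes 27.6% differed by this much or more in either direction. The spot has feature number 50304, and 1.5-fold differences occurred among 17.7% of equally bright spots numbered above 50000 and among 10.9% of those with lower numbers. Whether its place on the array has a part in the Smad7 value was not tested.

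Ski, the corepressor for which the family is named, was dim. Its only probe read 28.8 units on the array labelled knockout and 30.1 units on the array labelled wild type, a difference of -0.10. At 15 to 50 units the median SD over spots was 0.35, so a difference under that size could not be resolved here.

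Skil, which encodes the SKI relative SnoN, was the gene of the 10 that stood apart in size. On the probe printed on 10 spots it had a median of 1195 units (1150 to 1240) on the array labelled knockout and 678 units (597 to 722) on the array labelled wild type. Every spot of the array labelled knockout was brighter than every spot of the other array. The difference was 0.80 ± 0.09 (SD over 10 spots), a 1.75-fold difference.

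A second Skil probe read 241 units on the array labelled knockout and 134 units on the array labelled wild type, a difference of 0.81. Both probes thus gave the same size, with an SD between them of 0.01, and the gene value was 0.81. Of the 10 spots 1 has a feature number above 50000, and it gave 0.69, inside the range of the other 9 (0.68 to 0.95). In either direction 7.29% of detected genes differed by as much as Skil or more, and 5.06% lay at or above it. Separation of the spots was not rare on these arrays. Of 241 detected probes printed on 10 spots, 20.3% had every spot of the array labelled knockout above every spot of the array labelled wild type and 12.4% had every spot below. In the same set 24 other probes differed by at least as much as the Skil probe in either direction, 18 of them as higher. Spots repeat 1 RNA sample per array, so these figures describe the arrays and not the genotypes.

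**Figure D3:**
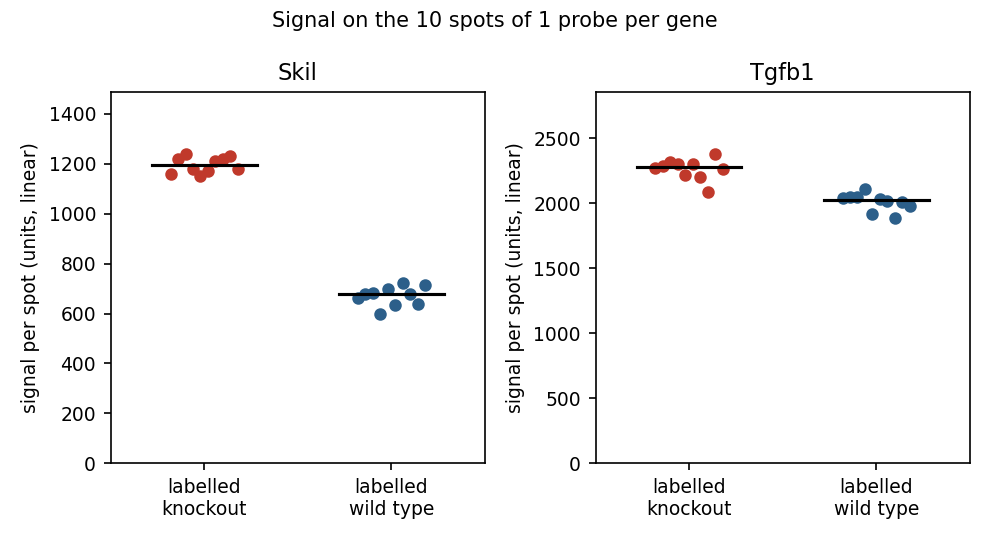
Signal per spot (units, linear axis from 0) of the Skil and Tgfb1 probes printed on 10 spots, array labelled knockout on the left and array labelled wild type on the right. Points are spots and lines are medians. The Skil spots separate (1150 to 1240 units on the left, 597 to 722 units on the right), while the Tgfb1 spots overlap (2090 to 2380 units on the left, 1890 to 2110 units on the right).

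Around these 10 genes, 92 further genes of the pathway were set in 10 lists, some of which share genes, and 77 of them were detected. Without the list of genes that TGF-beta is known to lower in T cells, 66 were detected, of which 6 passed 2-fold as higher on the array labelled knockout and 0 as lower. These are Lrrc32, Itgav, Furin, Acvrl1, Bmpr1a and Id1, and they make up 9.09%, against 3.62% of all detected genes. The median over the 66 was 0.09. The lists were chosen with results of these data known, so the share is a description of them.

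Of the 8 detected genes for storing and activating the ligand, 3 were at the 2-fold mark. Lrrc32 encodes GARP, which holds latent TGF-beta on the cell surface, and read 916 units on the array labelled knockout and 442 units on the array labelled wild type (1.02). Furin, the protease that cleaves the TGF-beta precursor, read 2360 units under the knockout label and 1150 units under the wild-type label (1.00). Itgav, the integrin alpha V chain that takes part in releasing the ligand, stood at 1.15 ± 0.24 (SD, 2 probes), from 382 and 180 units on the array labelled knockout against 149 and 89.0 units on the array labelled wild type. Itgb8 and Itgb6, partner chains of that integrin, were not detected on either array. The other ligand genes were dim, with Tgfb3 at 34.3 units under the knockout label and 35.6 units under the wild-type label. Nrros, a relative of Lrrc32, stood at 0.09. The list had a median of 0.43 (0.14 to 0.76 over the processing alternatives), with 0 of its genes at least 2-fold lower.

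Receptors of the neighbouring activin and BMP branches held the largest difference of the pathway lists outside the genes that TGF-beta is known to lower. Acvrl1 encodes the type I receptor ALK1 and read 636 units on the array labelled knockout and 132 units on the array labelled wild type on 1 spot, a 4.71-fold difference (2.24). Bmpr1a, a type I receptor for BMPs, read 80.3 units under the knockout label and 38.4 units under the wild-type label (1.03), also on 1 spot. Acvr1, a further type I receptor, stood at 0.53 ± 0.14 (SD, 2 probes). Of the type II receptors, Bmpr2 stood at -0.23 and Acvr2b at -0.19, each on 1 spot numbered above 50000. The list of 8 detected genes had a median of -0.17, which changed sign over the processing alternatives (-0.18 to 0.23). Without spots numbered above 50000 that median was 0.14. ALK1 is best known in endothelium. Of the stromal and endothelial markers 5 of 8 were detected and 0 passed 2-fold. With 58.3% of all detected genes at or below the Smad2 value of -0.0005, 4 of these markers were below 0 (Pecam1 at -0.14) and 1 above. That 1 was the stromal Dcn, at 18.4 units under the knockout label and 3.23 units under the wild-type label. Its wild-type side was set to the detection level, so its value of 0.34 is a lower bound. Kdr, an endothelial receptor gene, read 2900 units under the knockout label and 3120 units under the wild-type label on 1 spot, but its probe printed on 10 spots lay below the detection level on both arrays (3.08 to 5.73 units under the knockout label, 2.74 to 4.11 units under the wild-type label). Without Kdr the other 4 markers summed to 202 units under the knockout label and 197 units under the wild-type label. Endothelial Cdh5 lay below the detection level in both (3.63 units under the knockout label and 3.29 units under the wild-type label), as did the stromal Col3a1 and Pdgfrb.

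Id1, an inhibitor of helix-loop-helix factors and a target of BMP-activated Smads, read 186 units on the array labelled knockout and 67.9 units on the array labelled wild type (1.42). Id3 stood at 0.44 and Id2 at 0.29. The Smads of that branch differed less, with Smad1 at 0.29 ± 0.14 (SD, 2 probes) and Smad5 at 0.21 ± 0.17 (SD, 2 probes), while Smad6 and Smad9 were not detected.

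Genes that tune the receptors and Smads lay near 0 as a list, with a median of 0.00 over 13 detected genes and 0 past 2-fold in either direction. Nedd4l, a ubiquitin ligase that acts on activated Smads, stood at 0.59, and Pmepa1, a TGF-beta target that holds back Smad activation, at 0.48 ± 0.01 (SD, 2 probes). Smurf1 and Smurf2, the ligases that work with SMAD7, stood at 0.26 and 0.04. Usp4 was at -0.17 and the dim Zfyve9, which encodes the Smad anchor SARA, at -0.20. Zfyve9 read 12.8 units under the knockout label and 16.4 units under the wild-type label. Its knockout side was set to the detection level, so its value is an upper bound that could only be below 0. The 7 detected corepressors, which include partners of SKI and SnoN, had a median of -0.11 and 0 past 2-fold. They ranged from -0.20 ± 0.39 (Tgif2; SD, 3 probes) and -0.19 (Hdac3) to -0.01 ± 0.17 (Ncor1; SD, 3 probes). The probes of Tgif2 lay on both sides of 0, as did those of Ncor1. Coactivators and DNA-binding partners of the Smads had a median of -0.02 over 10 genes and 0 past 2-fold, with Runx3 at 0.67 ± 0.19 (SD, 2 probes), Zeb2 at 0.58, Foxo3 at -0.24 ± 0.26 (SD, 2 probes) and Runx1 at -0.18 ± 0.29 (SD, 2 probes). The signalling branch that runs without Smads had a median of 0.13 over 10 genes and 0 past 2-fold, with Tab2 at 0.29, Traf6 at 0.22 ± 0.28 (SD, 2 probes), Mapk14 at -0.18 and Tab1 at -0.24.

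**Figure D4:**
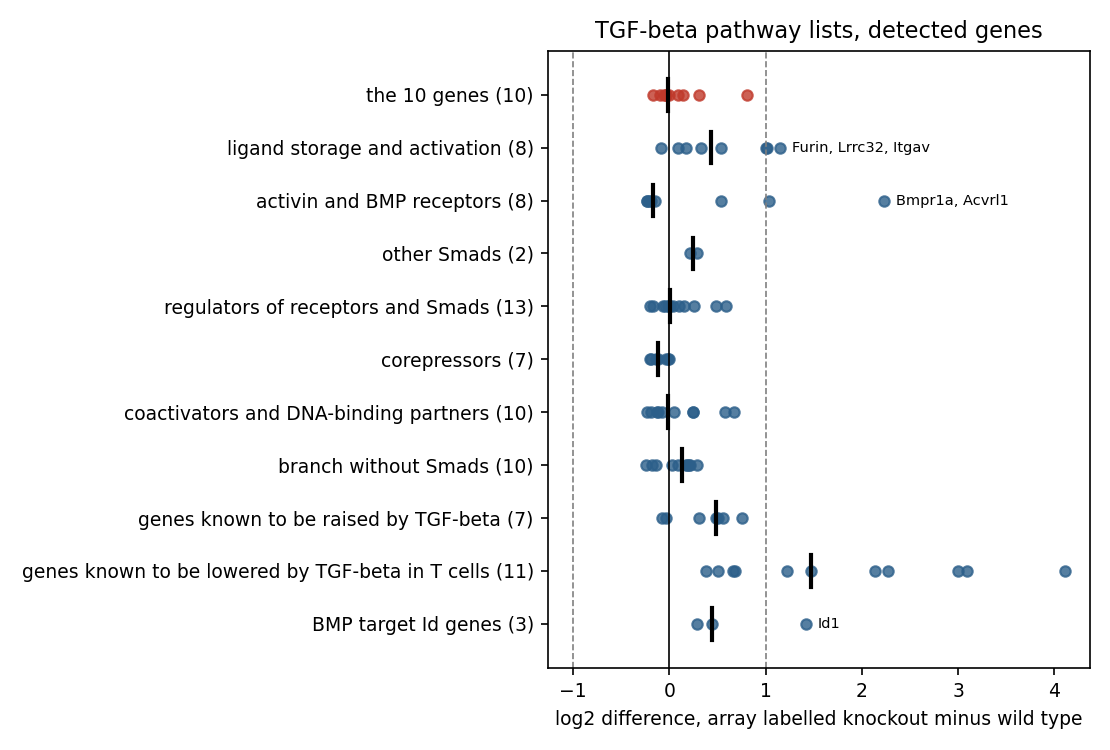
Log2 differences (knockout minus wild type, by label) of the detected genes of each pathway list, with the 10 genes on top. Points are genes, black bars are list medians, numbers in brackets are detected genes and dashed lines mark 2-fold. Genes at least 2-fold higher are named except in the list of genes known to be lowered by TGF-beta, whose median is 1.47.

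Genes that TGF-beta is known to raise, apart from Smad7 and Skil, were read for 7 of 12 listed. None was 2-fold higher or lower (0 each way), and the median was 0.48. That median ran from 0.23 with the floor at the 25th percentile to 0.55 with cyclic loess, and stood at 0.31 with the floor at the 75th percentile. Ccr8, a chemokine receptor gene, stood at 0.76 ± 0.14 (SD, 2 probes), Foxp3, the factor of regulatory T cells, at 0.56, and Junb at 0.31. Cdkn1a, an inhibitor of the cell cycle, stood at 0.51 ± 0.47 (SD, 3 probes), and its probes disagreed, with 1 at -0.01, 1 at 0.67 and the spots of the third at 0.84 to 0.93. Tgif1 stood at -0.04 and Cdkn2b, at the detection level, at -0.07. Itgae, the integrin chain CD103 that TGF-beta induces in T cells, was not detected on either array (3.90 units under the knockout label and 3.55 units under the wild-type label).

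All 11 genes that TGF-beta is known to lower in T cells were above 0, with a median of 1.47. For all detected genes, 41.7% lay at or above the Smad2 value of -0.0005. Of the 11 genes 7 passed 2-fold as higher and 0 as lower, against 3.62% and 1.52% of all detected genes. This list holds the T helper 1 and cytotoxic genes already central to the series, and their differences are not independent evidence on the pathway. Ifng stood at 4.11, Il12rb2, an IL-12 receptor chain, at 3.09, and Tbx21, which encodes the T helper 1 factor T-bet, at 3.00. The granzyme genes Gzmb and Gzma stood at 2.27 and 1.22, the cytokine gene Il2 at 2.14 and the T-box factor gene Eomes at 1.47. Myc, a driver of cell growth, stood at 0.50 and Gata3 at 0.68. Klrg1 read 18.9 units under the knockout label and 5.73 units under the wild-type label, the latter below the detection level. That side was set to the detection level, so the Klrg1 value of 0.38 is a lower bound that could only be above 0.

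All 10 CD8 T and NK cell markers were above 0, while 41.7% of all detected genes lay at or above the Smad2 value of -0.0005. Of these markers 6 passed 2-fold as higher, against 3.62% of all detected genes. The summed signals of these markers were 4856 units on the array labelled knockout and 1894 units on the array labelled wild type. Without Nkg7 the sums were 2780 and 926 units, of which Eomes gave 1843 and 649 units. The markers past 2-fold were Klrc1 (2.31 ± 0.56), Klra4 (2.13), Klrd1 (1.75), Eomes (1.47 ± 0.08), Cd8a (1.26 ± 0.02) and Nkg7 (1.07 ± 0.35), each SD over 2 probes. The brighter Nkg7 probe stood at 0.82, short of 2-fold, and the other at 1.31. Cd8a, Klrk1, Klrb1c and Ncr1 were below the detection level on the array labelled wild type. That side was set to the detection level, so their differences are lower bounds that could only be above 0. The dimmer Klrc1 probe (54.6 units under the knockout label, 3.70 units under the wild-type label) was bounded likewise. The Cd8a spot numbered 54224 went the other way (33.1 units under the knockout label, 70.8 units under the wild-type label). B cell markers had 2 of 6 detected genes at least 2-fold higher, Blnk (3.62) and Ms4a1 (3.52), at a list median of 0.39. The others were Cd79a at 0.41 ± 0.72 (SD, 2 probes), Cd22 at 0.37, Cr2 at 0.25 and Cd79b at -0.17. The 6 genes summed to 1117 units under the knockout label and 524 units under the wild-type label. Without Blnk the sums were 731 and 493 units, of which Ms4a1 gave 221 and 18.9 units. Pax5 was below the detection level in both. Myeloid markers had 1 of 5 higher, Mpeg1, which read 335 units under the knockout label and 11.7 units under the wild-type label, at a list median of 0.01. The other 4 summed to 310 units under the knockout label and 312 units under the wild-type label, with Lyz2, Cd14 and Fcgr3 below the detection level in both. Platelet markers had 1 of 3 higher, Pf4, which read 147 units under the knockout label and 54.6 units under the wild-type label. The other pair summed to 28.6 units under the knockout label and 34.1 units under the wild-type label, with Ppbp, Itga2b and Gp9 not detected. CD4 T cell markers were below 0 in 7 of 7 cases, at a median of -0.41. Of all detected genes 58.3% lay at or below the Smad2 value of -0.0005, and the median of all was -0.05. The part of other cells in the Skil, Acvrl1 and list values was not tested, and fewer cells of a type cannot be told apart from less RNA per cell in such samples.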

How the data were processed

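The members and lists were chosen with earlier results of these data known. Each array received amplified, labelled material from 100 ng of total RNA per the labels' protocols, and Agilent Feature Extraction 11.5.1.1 is named per the submitters' processing notes. The authors' values, as deposited, are linear intensities of single spots; how background was corrected is not given in the sources used. The number of arrays limits the precision.

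Signals were put on the log2 scale, averaged over the spots of a probe (59305 spots, 55681 probes) and scaled to each array's 75th percentile. Probes at or below the array median on both arrays were left out, and a side below it was set to it. Symbols came from the platform annotation (31465 spots with 1 symbol, 0 with several, 27840 with none) and were updated through RefSeq (GRCm38.p6), which altered 3282. The files name no build and coordinates are omitted. With 1 array per group genes were counted at 2-fold, without a test. Scaling and the gene summary were tested on simulated probe values, with known differences only in genes well above the detection level on both arrays. Spot averaging and bounds at the detection level were not tested. By rule the text names all 10 members, Gfi1, list genes past 2-fold or otherwise the largest each way, other-cell markers past 2-fold or undetected, and genes between Tgfbr3 and Gfi1. Other genes were named after their values were seen. Alternatives covered scaling, floor, probe choice, the authors' table, late-numbered spots and an offset of 16 units. Python 3.11.15, numpy 2.4.6, pandas 2.3.3 and statsmodels 0.14.6 were used.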

Additional observations from a re-analysis of the deposited data

How the results depend on the processing

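Under 14 alternatives of processing, 0 of the 10 genes passed 2-fold in either direction, and at a threshold of 1.5-fold 1 was higher (Skil). Skil stood between 0.77 and 0.88, Smad7 between 0.29 and 0.39 over the 12 that kept its probe, and Tgfb1 between 0.13 and 0.20. Tgfbr2, Smad2 and Smad3 changed sign under 2, 5 and 3 alternatives. Tgfbr3 stood at 0 without scaling and above 0 only with cyclic loess (0.03). The median of the 10 genes ran from -0.04 to 0.05, and the median of all genes also crossed 0, with cyclic loess (0.01) and with no floor (0.04). Furin fell below 2-fold under 4 alternatives, Itgav under 2 (lowest 0.51) and Lrrc32 and Bmpr1a under 1 each, while Acvrl1 (lowest 1.24) passed it under all 14 and Id1 (lowest 1.24) under the 13 that detected it, the floor at the 75th percentile leaving it out. Of 140 list medians 19 moved by more than the spread between probes. That of the activin and BMP receptors ran from -0.18 to 0.23, that of ligand storage and activation from 0.14 to 0.76, and that of genes TGF-beta is known to raise from 0.23 to 0.55. No paired analysis was possible because each group has 1 array. Dim probes such as that of Ski carry the least precision.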

Other observations

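Between Tgfbr3 and Gfi1 the RefSeq gene table lists 16 genes, 7 of them protein-coding, and 5 were detected. Ephx4, an epoxide hydrolase gene, gave 157 units under the knockout label and 496 units under the wild-type label (-1.69), and Btbd8 read 17.5 units under the knockout label and 37.0 units under the wild-type label (-1.11). The detected probes of these genes had 1 spot each, and both spots have feature numbers above 50000. Brdt, a bromodomain gene of the testis, stood at -0.48 ± 0.46 (SD, 2 probes), Glmn at 0.21 ± 0.06 (SD, 2 probes) and Rpap2 at 0.11 ± 0.24 (SD, 3 probes). Tgfbr3, at the far end, stood at -0.03, and Gfi1 at 2.05.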
